A study of Mus musculus with 33 samples.

Results

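Isoform counts of cardiac myocytes from wild-type (WT) mouse hearts were compared between 5 and 18 weeks of age, with 9 weeks as a middle point. The measurement was RASL-seq, in which 2 oligonucleotides that anneal on either side of an exon junction are ligated on the transcript and sequenced, giving a count of the short and a count of the long isoform of each splice event. The table holds 3885 events under 2984 gene names. Events were kept when they had a mean of at least 20 counts over 18 libraries and a mean of at least 1 count for each isoform, which left 2032 events of 1650 genes. Of the others, 1328 had too few counts in all and 525 too few of 1 isoform. An event of 4933426M11Rik lay just inside the limit with a mean of 20.06 counts and one of Pigv just outside with 19.89. Most of the tested events, 1961, are cassette exons, which are exons that are either skipped (short) or included (long). Of the 33 samples of the series, 3 are the WT groups described here, each with 3 numbered libraries. The mice had a Black Swiss background. Knockout (KO) myocytes of the same strain, lacking Rbfox2, a splicing regulator of heart muscle, were measured at the same 3 ages, and their 9 libraries entered the same fit. The labels give neither the part of Rbfox2 that was removed nor the cells in which it was removed. Each age of each genotype is listed as 1 sample, and whether its libraries came from separate animals is not stated, so the p-values measure the spread between these libraries, which may be technical. No preparation dates are given, and age and a preparation batch that goes with age cannot be told apart.

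After birth, heart muscle replaces many fetal isoforms with adult ones, a switch that is known to involve the RBFOX, MBNL and CELF families of RNA-binding proteins. The genes concerned include those of the Z disc, which anchors the thin filaments, of calcium signalling, and of the transport of membranes within the cell. By 5 weeks mice are weaned and past the main neonatal switch, so that the interval described here covers young to mature adulthood. Myocytes are the largest cells of the heart, but endothelial cells and fibroblasts outnumber them, and preparations of isolated myocytes can hold some of both.

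The 9 WT libraries held 2989294 to 12876511 counts. The 3 events of Rbfox2 summed to 275.3 to 462.5 counts per 1000000 (CPM) in them and to 26.5 to 141.3 CPM in the 9 KO libraries, without overlap. Events of cardiac myocyte markers summed to 36659 to 56441 CPM in the WT libraries, and none of these 11 events was at 0 in any library. Library 1 of week 5 stood apart from the other 2 of its age. The chi-square statistic of its counts against theirs was 43 and 39 per degree of freedom, a measure that grows with depth, while libraries 2 and 3 gave 5.84 against each other. Its cell cycle marker events, of the mitotic genes Kif23 and Ccnb1, summed to 8.23 CPM, against 100.4 and 98.4 CPM in libraries 2 and 3 and 3.96 to 6.98 CPM at the later ages. Its endothelial and fibroblast marker counts were also lower than those of libraries 2 and 3, as given with the marker counts. Counts of passing events are therefore also given without this library. All other pairs of libraries of an age gave 6.29 to 50.3, which is above sampling noise, and no libraries were merged.

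Between weeks 5 and 18, the ratio of long to short isoform changed in 115 of the 2032 events, or 5.66%, of 110 genes (edgeR's quasi-likelihood test with Benjamini-Hochberg adjustment over all events, adjusted p under 0.05). The long isoform gained in 71 events (3.49%) and lost in 44 (2.17%). Unadjusted p-values were under 0.05 in 392 events. Cassette exons made up 112 of the 115. The share of an event's counts that fell on the long isoform, called its long share here, changed by at least 10 points in 55 events and by less than 2 points in 19. Its median absolute change was 8.57 points, against 2.12 over all tested events. Since the probes of 2 isoforms can be joined with unequal efficiency, a long share serves to compare groups and is not the share of RNA molecules. In 112 of the 115 events the 3 libraries of week 5 did not overlap the 3 of week 18, as was so in 28.1% of all tested events. The 115 were chosen for a difference between these same libraries, which favours such a gap.

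Gains and losses began at all levels: 30 of the 71 rising events and 26 of the 44 falling ones had a long share under 50% at week 5. The median long share of the 71 rising events went from 61.9% to 81.8%, and that of the 44 falling events from 27.9% to 10.2%. The counts of both isoforms took part in most events: the mean CPM of the 2 isoforms moved in opposite directions in 80 of the 115 (69.6%), against 38.9% of all tested events. The 115 were chosen for a change in the ratio of these same counts, which favours opposite directions. The total count of the event passed its own test in 35 of the 115, higher in 19 and lower in 16, against 17% of all tested events.

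How many events passed depended on single libraries and on the scaling. Without library 1 of week 5, 174 events passed, 113 higher and 61 lower, and 102 of them were among the 115. Without library 2 or 3 of week 5, 29 and 30 events passed, and without 1 library of week 18, 36 to 56. When each isoform column was scaled by its own TMM factor in place of 1 total per library, 57 events passed, 28 higher and 29 lower, all among the 115. With RLE size factors 102 passed, 48 higher and 54 lower. The median log2 ratio change over all tested events was 0.07 with 1 total per library, -0.01 with TMM and -0.07 with RLE. The balance of gains and losses thus differed with the scaling. None of the named events that passed changed direction under TMM, RLE or column totals.

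**Figure D1:**
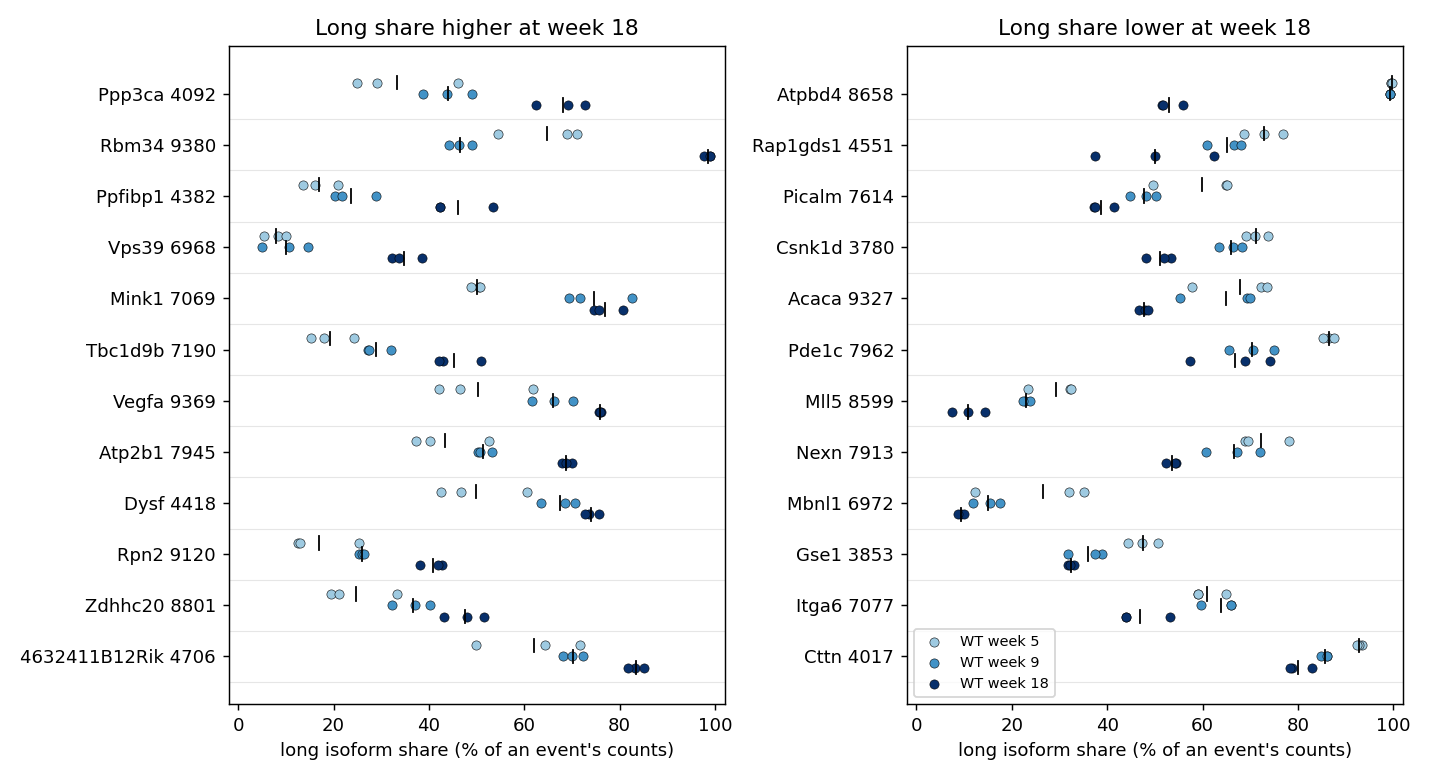
Long isoform share, as a percentage of an event's counts, in the 9 WT libraries for the 12 events with the largest rise (left) and the 12 with the largest fall (right) among passing events whose mean count reached 50 and whose libraries of weeks 5 and 18 did not overlap. Points are libraries, vertical strokes are means of 3 libraries, and the number after a gene name is the event's number in the table; the changes shown run from 21.4 to 34.7 points up and from 12.8 to 46.6 points down.

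Of the 43 events named by the rule that passed, 16 passed again without each of the 6 libraries of weeks 5 and 18 in turn. Values stand in the order of libraries 1, 2 and 3, and test values are log2 changes of the long to short ratio.

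The largest gain among passing events with a mean of at least 50 counts was in Ppp3ca. Ppp3ca (event 4092), the catalytic subunit of the phosphatase calcineurin, had long shares of 46.2%, 29.2% and 24.8% at week 5, 43.9%, 49.1% and 38.7% at week 9 and 72.7%, 69.2% and 62.4% at week 18. All libraries of week 18 lay above all of weeks 5 and 9, and library 1 of week 5 was the highest of its age. The ratio rose by 2.13 ± 0.37 (SE), adjusted p = 0.00163. Isoform counts moved oppositely, from 139 CPM of the short and 66.3 CPM of the long isoform at week 5 to 44.7 CPM of the short and 95.1 CPM of the long isoform at week 18. Atp2b1 (event 7945), a plasma membrane calcium pump, had long shares of 52.6%, 37.2% and 40.3% at week 5, 53.3%, 50.3% and 50.6% at week 9 and 69.9%, 67.9% and 68.6% at week 18. Its ratio rose by 1.52 ± 0.28 (SE), adjusted p = 0.00276, and all libraries of week 18 lay above the rest. Csnk1g3 (event 9192), a casein kinase, went from 79.5%, 69.8% and 66.7% at week 5 to 87.2%, 89.6% and 88.1% at week 18, a rise of 1.52 ± 0.28 (SE), adjusted p = 0.00276. Arhgef11 (event 9358), a guanine nucleotide exchange factor of small GTPases, was at 86.2%, 81.5% and 82.5% and then at 96.1%, 94.4% and 94.8%, a rise of 1.95 ± 0.30 (SE), adjusted p = 0.000576. In both genes the libraries of weeks 5 and 18 did not overlap. Ppfibp1 (event 4382), a liprin, rose from 16.1%, 13.5% and 20.9% to 42.3%, 53.4% and 42.3% (2.08 ± 0.38 (SE), adjusted p = 0.00276), and here library 1 of week 5 lay between the other 2.

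The gene lists used here and below were chosen with earlier results of these data known, so their shares are no independent check. Among kinases, phosphatases and their anchors, 8 of 69 tested events passed, 7 with more and 1 with less of the long isoform (11.6%, beside 5.66% of all events). TMM scaling left 4, all gains. Leaving out library 1 of week 5 gave 9 (8 gains and 1 loss), and without any 1 of the other 5 libraries 4 to 6. The single loss was in Csnk1d (event 3780), another casein kinase, at 69.1%, 71.0% and 73.6% and then 53.3%, 51.9% and 48.2%. Its change was -1.24 ± 0.35 (SE), adjusted p = 0.0400. Mink1 (event 7069), a kinase of the Ste20 group, went from 50.5%, 50.7% and 48.9% to 74.6%, 80.8% and 75.6%, with week 9 at 69.4%, 71.6% and 82.5%, so that most of its rise was there by week 9. For Mink1 the change was 1.74 ± 0.46 (SE), adjusted p = 0.0316, and Csnk1d and Mink1 both missed the threshold without library 2 or 3 of week 5 or without any 1 library of week 18, at adjusted p up to 0.144 and 0.115. Akap13, an anchor of protein kinase A, is in the table under 2 numbers with the same counts (events 6941 and 8978) and so makes up 2 of the 8. Its long share went from 93.0%, 92.4% and 90.6% to 96.4%, 96.0% and 96.9%, and its adjusted p of 0.0147 reached up to 0.0770 without library 2 or 3 of week 5 or library 1 or 3 of week 18.

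Calcium handling and ion channels had 4 gains and no loss among 29 tested events (13.8%, beside 5.66% of all events). TMM scaling left 2 gains, leaving out library 1 of week 5 left 4 gains, and leaving out another library 2 or 3. Beside Atp2b1, Asph (event 8275) was the clearest. Asph encodes aspartate beta-hydroxylase and, through other isoforms, junctin and junctate of the sarcoplasmic reticulum. Its long shares were 74.1%, 71.7% and 71.6% at week 5, 80.4%, 81.0% and 79.5% at week 9 and 83.3%, 83.3% and 83.9% at week 18. No libraries of different ages overlapped, and the ratio rose by 0.94 ± 0.16 (SE), adjusted p = 0.00163. The gains in Cacna1c (event 8805), the pore subunit of the L-type calcium channel, and Camk2d (event 4762), a calmodulin-dependent kinase, came to less than 1 point. Their long shares were 99.1% to 99.4% and 99.0% to 99.2% at week 5 and 99.6% to 99.8% and 99.6% in each library at week 18. At such levels the ratio follows few short counts, a mean of 5.31 CPM at week 5 and 1.72 CPM at week 18 for Cacna1c. Cacna1c's adjusted p of 0.0265 became up to 0.157 without any single library other than library 2 of week 18, and Camk2d's of 0.0316 up to 0.173 without any other than library 1 of week 5.

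Vegfa and Rpn2 were among the 12 largest gains. Vegfa (event 9369), the growth factor that drives vessel growth, had long shares of 61.8%, 46.6% and 42.2% at week 5, 70.2%, 66.3% and 61.6% at week 9 and 76.0%, 75.6% and 75.9% at week 18. The libraries of week 18 lay close together and above all others, and library 1 of week 5 was again the highest of its age. The rise was 1.64 ± 0.25 (SE), adjusted p = 0.000576, and Vegfa had 538 CPM of the short and 488 CPM of the long isoform at week 5 and 206 CPM of the short and 648 CPM of the long isoform at week 18. Rpn2 (event 9120), a subunit of the oligosaccharyltransferase that glycosylates proteins in the endoplasmic reticulum, had long shares of 25.4%, 12.6% and 12.9% at week 5, 25.3%, 26% and 26.3% at week 9 and 38.2%, 42.7% and 41.9% at week 18. Library 1 of week 5 was at the level of week 9, and all libraries of week 18 were higher. The ratio rose by 1.84 ± 0.28 (SE), adjusted p = 0.000576, mainly through a fall of the short isoform from 619 to 224 CPM.

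Genes of the sarcomere and Z disc had 8 of 44 tested events passing, 4 in each direction (18.2%, beside 5.66% of all events). Some of the 8 share a gene, and the smallest gain, in Nrap (event 4390), was of only 0.083 points. With TMM scaling 2 gains and 4 losses passed. There were 13 without library 1 of week 5 (7 gains and 6 losses), and without another library 2 to 4. Nexn (event 7913), the Z disc protein nexilin, had long shares of 78.1%, 68.8% and 69.5% at week 5, 67.3%, 60.7% and 72.0% at week 9 and 52.4%, 54.3% and 54.3% at week 18, on 51782 counts per library in the mean. Week 18 lay below every other library, and the ratio fell by 1.18 ± 0.22 (SE), adjusted p = 0.00276. Here library 1 of week 5 was the farthest from week 18, not the nearest. Ablim1 (event 3756), which binds actin filaments, lost long isoform at a low level, from 1.39%, 1.51% and 1.88% to 0.868%, 0.496% and 0.355% (-1.46 ± 0.33 (SE), adjusted p = 0.0133), and its adjusted p was up to 0.0832 without library 2 or 3 of week 5 or of week 18.

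In membrane trafficking and endocytosis, 6 of 57 tested events passed, 4 gains and 2 losses (10.5%, beside 5.66% of all events). With TMM scaling there were 2 of each. The count was 8 without library 1 of week 5 (6 gains and 2 losses), and without another library 2 to 4. Dnm2 (event 7279), the dynamin that cuts endocytic vesicles free, had long shares of 51.5%, 38.9% and 41.3% at week 5, 55.3%, 60.6% and 53.1% at week 9 and 66.2%, 62.8% and 64.4% at week 18. The ages 5 and 18 did not overlap, and its ratio rose by 1.21 ± 0.24 (SE), adjusted p = 0.00424. Dnm1l (event 3927), the dynamin-related protein that divides mitochondria, lost long isoform, with shares of 12%, 17.4% and 20.9% at week 5, 12.1%, 8.55% and 10.4% at week 9 and 5.67%, 5.93% and 7.98% at week 18. Library 1 of week 5 was within the range of week 9, and all of week 18 were lower. Its change was -1.50 ± 0.27 (SE), adjusted p = 0.00254, and its long isoform fell from 40.4 to 17.8 CPM. Picalm (event 7614), a clathrin assembly protein, went from 49.6%, 64.9% and 65.1% to 37.2%, 41.5% and 37.5%, with week 9 at 44.8%, 48.1% and 50.2%. This change of -1.25 ± 0.26 (SE), adjusted p = 0.00643 missed the threshold without library 2 or 3 of week 5 (adjusted p = 0.0574 and 0.0600). Vps39 (event 6968), a subunit of a tethering complex for late endosomes and lysosomes, rose from 5.33%, 8.33% and 10.0% to 32.3%, 33.8% and 38.6% on a mean of 73.9 counts (2.67 ± 0.66 (SE), adjusted p = 0.0217). Leaving out any 1 library took its adjusted p to between 0.0549 and 0.0840. Snx14 (event 4427), a sorting nexin, rose from 94.3%, 89.6% and 89.8% to 96.5%, 94.8% and 96.1% (1.09 ± 0.26 (SE), adjusted p = 0.0169), and its adjusted p was up to 0.115 without library 2 or 3 of week 5 or library 1 or 3 of week 18.

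Of 78 tested events of the cytoskeleton and of cell adhesion, 8 passed, 6 gains and 2 losses (10.3%, beside 5.66% of all events). TMM scaling left 3 gains and 1 loss. Without library 1 of week 5, 17 passed with a near even split, 9 gains and 8 losses, and without another library 2 to 4 passed. Cttn (event 4017), the actin-branching protein cortactin, had long shares of 93.4%, 92.8% and 92.4% at week 5, 86.0%, 84.7% and 86.1% at week 9 and 83.0%, 78.7% and 78.4% at week 18. The 3 ages did not overlap, and each lay below the one before. The ratio fell by 1.69 ± 0.34 (SE), adjusted p = 0.00513. Ctnnd1 (event 4876), p120 catenin of adherens junctions, was late: its long shares were 0.496%, 0.216% and 0.0471% at week 5, 0.104%, 0.269% and 0.304% at week 9 and 3.35%, 4.54% and 4.05% at week 18. The long isoform held 1 to 23 counts in each library of weeks 5 and 9 and 48 to 53 in each of week 18. Its rise was 3.89 ± 0.60 (SE), adjusted p = 0.000576, and both of its count columns also stand in other Ctnnd1 events. Nf2 (event 4361), the tumour suppressor merlin, went from 98.6%, 95.8% and 96.2% to 99.1%, 99.1% and 99.0% (1.63 ± 0.33 (SE), adjusted p = 0.00542), with adjusted p of 0.0574 and 0.0566 without library 2 or 3 of week 5. Clip1 (event 4104), a microtubule plus-end protein, went from 99.1%, 94.4% and 96.6% to 99.6%, 99.6% and 99.7% (2.98 ± 0.76 (SE), adjusted p = 0.0268), and its adjusted p was up to 0.199 without any single library other than library 1 of week 5. The Clip1 ratio rests on few short counts, 6, 22 and 11 at week 5 and 3, 2 and 2 at week 18. Itga6 (event 7077), the laminin receptor integrin alpha 6, had long shares of 59.1%, 59.1% and 64.8% at week 5, 65.9%, 65.9% and 59.7% at week 9 and 44.0%, 43.9% and 53.1% at week 18, and week 9 was no lower than week 5. Its change was -0.82 ± 0.24 (SE), adjusted p = 0.0454, up to 0.200 without library 2 or 3 of week 5 or library 1 or 2 of week 18. The total count of the Itga6 event fell as well, by 1.74 on the log2 scale (adjusted p = 0.00261), as did those of the endothelial marker events described below, and the part of endothelial RNA in its ratio was not tested.

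In mitochondria and metabolism, 6 of 24 tested events passed (25%, beside 5.66% of all events), with 1 gain and 5 losses. With TMM scaling 2 losses passed. Without library 1 of week 5, 8 events passed (3 gains and 5 losses), and without another library 1 to 3. Dnm1l, described above, is one of them. Acaca (event 9327), acetyl-CoA carboxylase, went from 57.8%, 72.3% and 73.6% to 46.7%, 48.0% and 48.6%, and at week 9 was still at 55.2%, 69.3% and 69.9%. Its change was -1.22 ± 0.34 (SE), adjusted p = 0.0355, with adjusted p up to 0.193 without any single library other than library 1 of week 5. Small shifts were seen in Atp5c1 (event 3744), the gamma subunit of ATP synthase, from 3.75%, 8.25% and 7.92% to 1.58%, 2.55% and 3.02% (-1.50 ± 0.35 (SE), adjusted p = 0.0158), and in Mfn2 (event 7748), a mitochondrial fusion protein, from 97.9%, 96.1% and 96.4% to 99.3%, 98.7% and 98.4% (1.45 ± 0.35 (SE), adjusted p = 0.0169). Both missed the threshold without library 2 or 3 of week 5 or library 1 of week 18, at adjusted p up to 0.104 and 0.114. Immt (event 7361), mitofilin of the inner membrane, fell from 1.51%, 1.76% and 1.56% to 1.05%, 0.828% and 0.776% (-0.88 ± 0.23 (SE), adjusted p = 0.0295), with adjusted p up to 0.128 without library 2 or 3 of either age.

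Of transcription and chromatin genes, 3 of 63 tested events passed (4.76%, beside 5.66% of all events), 1 gain and 2 losses. TMM scaling left the 2 losses. Without library 1 of week 5, 6 passed, 3 in each direction, and without another library 1 or 2. Mll5 (event 8599; now Kmt2e), a chromatin protein with a SET domain, had long shares of 32.2%, 32.4% and 23.4% at week 5, 22.8%, 23.8% and 22.4% at week 9 and 10.8%, 14.4% and 7.39% at week 18. Week 18 lay below the other ages, and the ratio fell by 1.81 ± 0.36 (SE), adjusted p = 0.00436. Tead1 (event 4723), the transcription factor through which Hippo signalling acts, was highest at week 9, with long shares of 12.7%, 16.6% and 15.9% at week 5, 32%, 21.6% and 31.9% at week 9 and 22.3%, 24.7% and 23.9% at week 18. Its rise of 0.81 ± 0.22 (SE), adjusted p = 0.0315 to week 18 missed the threshold without any 1 library (adjusted p from 0.0708 to 0.104). An event named Pb1 (3769) fell from 4.01%, 11.3% and 12.1% to 1.92%, 2.33% and 2.25% (-2.05 ± 0.45 (SE), adjusted p = 0.00946), with adjusted p up to 0.0770 without library 2 or 3 of week 5 or library 1 of week 18. RefSeq lists Pb1 as an older symbol of both Pbrm1, a chromatin remodelling subunit, and Adgrg3, and the event was counted here under the first.

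Of splicing and RNA-binding factors, 2 of 72 tested events passed (2.78%, beside 5.66% of all events), 1 gain and 1 loss, also with TMM scaling. Leaving out library 1 of week 5 gave 7 (2 gains and 5 losses), and without another library 1. Mbnl1 (event 6972), a splicing factor of the postnatal switch, had long shares of 12.4%, 35.2% and 31.9% at week 5, 15.5%, 11.9% and 17.4% at week 9 and 9.33%, 9.95% and 8.77% at week 18. Library 1 of week 5 was at the level of week 9 and more than 19 points below libraries 2 and 3. Its change of -1.68 ± 0.44 (SE), adjusted p = 0.0315 had an adjusted p of 0.000540 without that library and of up to 0.200 without any other. Rbm34 (event 9380), an RNA-binding protein, had long shares of 54.4%, 71.1% and 68.9% at week 5, 49.0%, 46.4% and 44.1% at week 9 and 99.0%, 97.8% and 99.0% at week 18. Its share fell from week 5 to week 9 and then rose to nearly all counts, with no overlap among the ages. The short isoform held 6 to 10 counts in each library of week 18 and 235 to 1646 in each of the earlier ones. The ratio rose by 5.29 ± 0.69 (SE), adjusted p = 0.000194.

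The largest fall among passing events with a mean of at least 50 counts was in Atpbd4 (event 8658; now Dph6), an enzyme of diphthamide synthesis, with long shares of 99.6%, 99.5% and 99.8% at week 5, 99.3%, 99.3% and 99.4% at week 9 and 51.4%, 51.7% and 55.8% at week 18. Weeks 5 and 9 were alike and week 18 lay far below. Isoform counts went from 0.516 CPM of the short and 143 CPM of the long isoform at week 5 to 37.7 CPM of the short and 42.4 CPM of the long isoform at week 18. The change was -7.78 ± 0.75 (SE), adjusted p = 2.41e-06; it is the one named event that passed under every alternative that gave it a value. In Atpbd4 and Rbm34 alike, the step to the week 18 level came after week 9. Differences in share of -47.9, 48.1 and 45.4 points were seen in an event of Reps2, one whose name was lost to a date, and one of Slit2, each with a mean under 50 counts; these were singled out after their values were seen.

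Other large gains were in Dysf, Tbc1d9b, Zdhhc20 and 4632411B12Rik, and other large losses in Rap1gds1, Pde1c and Gse1. Dysf (event 4418), dysferlin, which repairs the muscle cell membrane, had long shares of 60.6%, 42.6% and 46.7% at week 5, 63.6%, 70.6% and 68.5% at week 9 and 73.6%, 72.7% and 75.7% at week 18. Its rise of 1.51 ± 0.32 (SE), adjusted p = 0.00824 had adjusted p of 0.0708 and 0.0600 without library 2 or 3 of week 5. Zdhhc20 (event 8801), a palmitoyltransferase, rose from 33.2%, 19.5% and 21.2% to 51.6%, 48.1% and 43.1%, and Tbc1d9b (event 7190), which has a domain of Rab GTPase-activating proteins, from 24.3%, 15.2% and 18% to 42.9%, 42.1% and 51.0%. Pde1c (event 7962), a calmodulin-dependent phosphodiesterase, fell from 86.5%, 85.3% and 87.6% to 68.9%, 74.1% and 57.4%, and Rap1gds1 (event 4551), an exchange factor of small GTPases, from 68.8%, 76.8% and 72.8% to 62.5%, 50.0% and 37.5%. Adjusted p-values of these 7 events lay between 0.00824 and 0.0468, and all 7 missed the threshold without library 2 or without library 3 of week 5, with values up to 0.253 for Rap1gds1 over all leave-outs. Of the 115 events, 11 share a count column with another event of the table, among them those of Akap13, Clip1, Ctnnd1, Dnm1l, Mfn2, Pb1 and Tbc1d9b.

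Over all tested events of a list, passing or not, the median absolute log2 ratio change was 0.73 for mitochondria and metabolism, 0.65 for the sarcomere and Z disc, 0.48 for the cytoskeleton and adhesion, and 0.70 for kinases and phosphatases, beside 0.53 for all tested events. It was 0.52 for calcium handling, 0.55 for membrane trafficking, 0.49 for transcription, 0.53 for splicing factors and 0.64 for the genes known for postnatal change.

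Genes known for isoform changes in the postnatal heart gave 7 passing events of 48 tested (14.6%, beside 5.66% of all events), 5 gains and 2 losses. This list too was chosen with earlier results of these data known, so its share is no independent check, and some of the 7 events share a gene. Events of Camk2d, Vps39, Mbnl1 and Ktn1 were among the 7. Without library 1 of week 5, 10 passed, with 4 gains and 6 losses, and without another library 1 or 2. With TMM scaling 3 gains and 2 losses passed. Ktn1 (event 7785), kinectin, rose from 39.7%, 50.6% and 48.8% at week 5 to 55.6%, 62.5% and 63.3% at week 9 and was at 62.7%, 60.5% and 58.9% at week 18. Its adjusted p of 0.0316 was between 0.0588 and 0.123 when any 1 library was left out. Of the most counted events of this list that did not pass, 3 are given here. Ttn (event 3819), the giant sarcomere spring, had long shares of 97.7%, 96.8% and 96.5% at week 5, 96.1%, 96.4% and 96.0% at week 9 and 97.2%, 97.4% and 97.2% at week 18, with adjusted p = 0.734 on a mean of 154789.6 counts. Pdlim5 (event 3760), a Z disc protein, had long shares of 0.227%, 0.745% and 0.650% at week 5, 0.320%, 0.280% and 0.210% at week 9 and 0.131%, 0.198% and 0.196% at week 18, with adjusted p = 0.106, and 0.0151 without library 1 of week 5. A second Ktn1 event (9451) was at 60.9% to 63.4% at week 5 and 63.2% to 65.9% at week 18 (adjusted p = 0.610).

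At week 9 most events stood between the 2 ends. The week 9 mean lay between the means of weeks 5 and 18 in 106 of the 115 events (92.2%), against 44.9% of the 2028 tested events with a share in every WT library; the 115 were chosen on both ends, which favours such a position. The median event had completed 48.7% of its change by week 9, with quartiles of 30.5% and 67.3%. At least 75% was completed in 19 events, among them Mink1 (90.8%) and Akap13 (84.2%). Less than 25% was completed in 22, among them Vps39 (8.24%), Immt (3.79%) and Atpbd4 (0.669%).

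**Figure D2:**
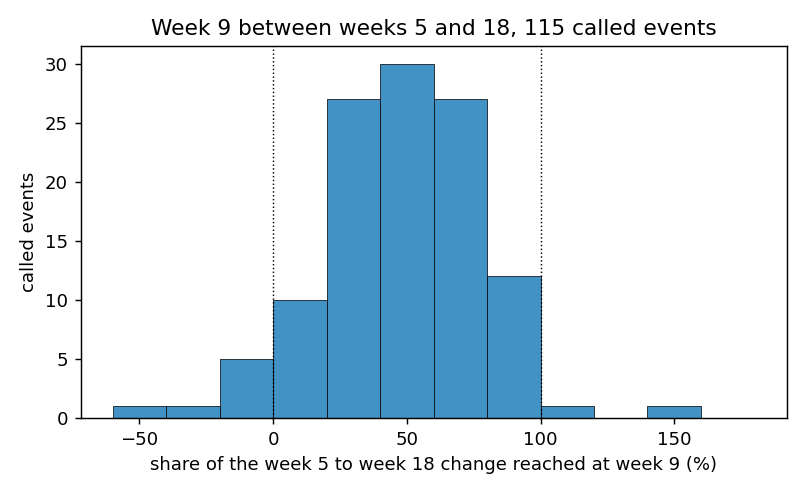
Number of called events (vertical axis) by the percentage of the week 5 to week 18 change in long share that was reached at week 9 (horizontal axis, bins of 20), for the 115 events; dotted lines mark the week 5 level at 0 and the week 18 level at 100. The median is 48.7%, with Rbm34 farthest below 0 at -54.1% and Tead1 farthest above 100 at 157%.

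Single steps passed in few events. From week 5 to week 9, 5 events passed (0.246% of those tested), and 228 had an unadjusted p under 0.05. Tead1, given above, was among these 5. Slc4a4 (event 4294), a sodium bicarbonate cotransporter, fell and came back, with long shares of 49.6%, 39.4% and 44.6% at week 5, 25.1%, 28% and 25.8% at week 9 and 37.3%, 41.3% and 42.8% at week 18, and from week 5 to week 9 its ratio changed by -1.17 ± 0.23 (SE), adjusted p = 0.0288. Luzp1 (event 8730) did likewise, from 40.7%, 39.4% and 37.6% to 23.1%, 24.4% and 17.6% and 33.4%, 31% and 31.7% (adjusted p = 0.0441), and Gpcpd1 (event 7215) rose from 96.5%, 92.4% and 90.8% to 98.8%, 99.0% and 99.4% (adjusted p = 0.0441). Without library 1 of week 5, 40 events passed for this step, and without library 2 or 3 of week 5 none. From week 9 to week 18, 6 events passed (0.295%), and 252 had an unadjusted p under 0.05; Atpbd4, Rbm34 and Ctnnd1 were among them. The other 3 were App, Mtap6 and Stk39. App (event 4548), the amyloid precursor protein, had long shares of 94.5%, 94.5% and 94.9% at week 5, 95.9%, 96.2% and 97.3% at week 9 and 88.4%, 88.7% and 89.0% at week 18, and its ratio from week 9 to week 18 changed by -1.83 ± 0.36 (SE), adjusted p = 0.0245. Stk39 (event 8723), a kinase that regulates ion cotransporters, had 85.1%, 87.1% and 87.8% at week 9 and 76.7%, 76.9% and 76.9% at week 18 (adjusted p = 0.0176). Mtap6 (event 7520; now Map6), a microtubule stabiliser, had 9.23%, 10.2% and 5.99% and 23%, 21.7% and 18.7% (adjusted p = 0.0359). For this step leaving out 1 library gave 3 to 14 events.

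Counts of endothelial and fibroblast marker events fell over the same interval. Pecam1 (event 8433), an adhesion molecule of endothelial cells, had total counts of 4697, 8946 and 8347 CPM at week 5, 5443, 4485 and 6760.4 at week 9 and 3187, 2900.0 and 2765 at week 18. Its second event (8242) had 507, 962 and 904 CPM at week 5, 567, 480.4 and 561 at week 9 and 329, 319.9 and 316 at week 18. In both, every library of week 18 lay below every other WT library, and library 1 of week 5 lay within the range of week 9. The totals fell by 1.16 ± 0.25 (SE) and 1.14 ± 0.20 on the log2 scale (edgeR's quasi-likelihood test on event totals with TMM scaling, adjusted p = 0.00441 and 0.000760). Over all events, 346 of 2032 totals passed this test (17%), 154 higher (7.58%) and 192 lower (9.45%), or 73 higher and 271 lower when scaled to library totals, which moved the median log2 change of all totals from 0.03 to -0.11. Emcn, endomucin of capillary and venous endothelium, fell by 1.64 ± 0.33 (event 7060, adjusted p = 0.00332) and 1.41 ± 0.32 (event 4239, adjusted p = 0.00542). Event 7060 had 228, 418 and 377 CPM at week 5, 216, 175 and 230.0 at week 9 and 113, 84.1 and 96.2 at week 18. All 5 tested events of the endothelial list, which also holds Erg, fell and passed.

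Matrix genes of fibroblasts fell as well. Postn (event 4248), periostin of activated fibroblasts, had 12.8, 47.3 and 46.8 CPM at week 5, 8.71, 10.2 and 7.14 at week 9 and 7.57, 6.30 and 5.99 at week 18, a fall of 2.22 ± 0.45 (adjusted p = 0.00332). The drop was there by week 9 (log2 change of -1.92, adjusted p = 0.0391; 22 totals, or 1.08%, passed for that step), and library 1 of week 5 was much nearer to the later ages than libraries 2 and 3. Fn1 (event 4406), fibronectin, had 53.8, 147 and 122 CPM at week 5, 46.0, 36.3 and 57.5 at week 9 and 25.6, 20.2 and 21 at week 18, a fall of 2.10 ± 0.37 (adjusted p = 0.00137). A rarer Fn1 event (4262) had 0.945 to 7.38 CPM and a log2 change of -1.91 that did not pass (adjusted p = 0.0646; 0.0211 without library 1 of week 5). Col6a3 (event 4862), a collagen chain, fell by 2.33 ± 0.44 (adjusted p = 0.00235), and 6 of the 7 tested events of the fibroblast list passed, all lower. In bulk samples, fewer cells of a type and less RNA per cell cannot be told apart.

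Other markers moved unequally. Cd74 (event 4451), of antigen-presenting leukocytes and the only tested event of its list, fell by 2.50 ± 0.32 (adjusted p = 9.33e-05), from 79.6, 175 and 197 to 24.2, 26.1 and 20.7 CPM. Myh11 (event 4967), smooth muscle myosin, fell by 0.76 ± 0.21 (adjusted p = 0.0189), up to 0.0871 without library 2 or 3 of week 5 or library 1 of week 18, and the other 3 tested events of the smooth muscle and pericyte list did not pass. The summed counts of that list were higher at week 18, at 1265 to 1384 CPM, than at week 5, at 801.2 to 825.0 CPM, without overlap, and the median log2 change of its tested totals was 0.10. The sum rests largely on Abcc9 event 3889, with 176 to 1077 CPM in the WT libraries. The next, Myocd event 3750, had 151 to 236 CPM. The sum is thus no measure of the list as a whole. Of 10 tested events of cardiac myocyte markers, 2 rose and none fell. One of them was Cacna1c event 8131, with a log2 change of 0.84 ± 0.20 (adjusted p = 0.00706). The summed counts of the endothelial list went from 5614 to 10627 CPM at week 5 over 5304 to 7739 at week 9 to 3268 to 3739 at week 18, and those of the fibroblast list from 119.4 to 409.6 over 113.1 to 136.1 to 52.3 to 70.0 CPM. Of 20 endothelial genes listed 3 are in the table, and of 27 fibroblast genes 5. One Postn event (4324) was at 0 in every library, no endothelial event was, and no erythroid gene is in the table.

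**Figure D3:**
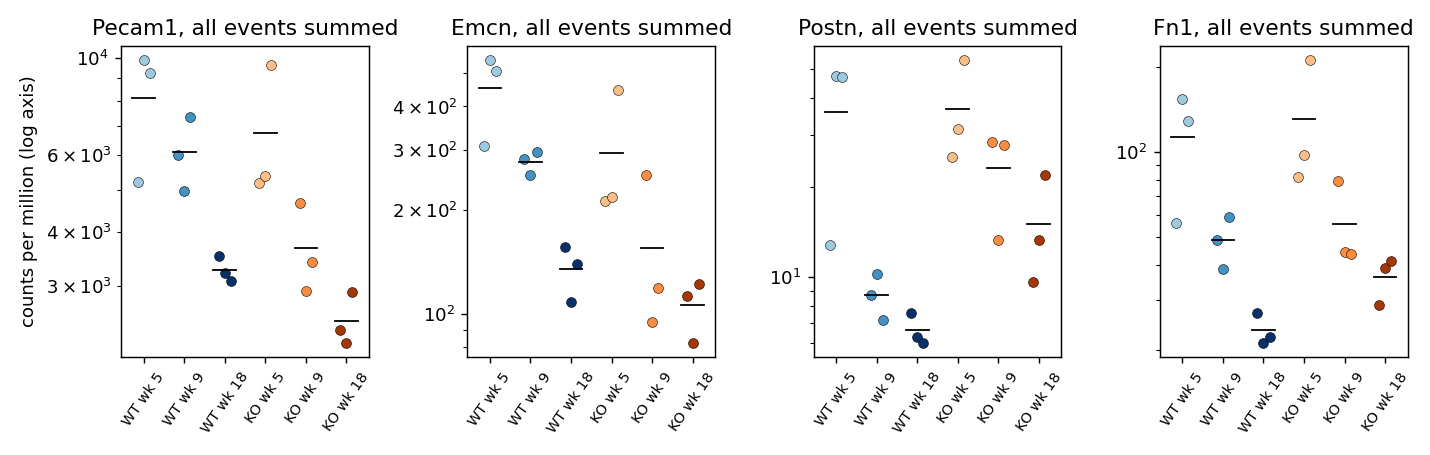
Counts per 1000000 of all events of Pecam1, Emcn, Postn and Fn1, summed per gene, in each RASL-seq library (log axis); points are libraries and strokes are means of the 3 libraries of a group. In WT, Pecam1 goes from 5204 to 9908 CPM at week 5 to 3080 to 3516 at week 18, and in each panel library 1 of week 5 is the lowest of its age.

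The isoform ratios of the marker events themselves did not pass. Pecam1 event 8242 had long shares of 81.1%, 77.5% and 77.1% at week 5, 81.0%, 81.2% and 76.8% at week 9 and 78.5%, 80.2% and 76.8% at week 18 (adjusted p = 0.989), and Emcn event 7060 of 81.7%, 80.3% and 80.8% at week 5, 80.4%, 79.3% and 81.9% at week 9 and 79.0%, 81.3% and 77.4% at week 18 (adjusted p = 0.797). For Postn event 4248 and Fn1 event 4406 the adjusted p was 0.815 and 0.376. Fn1 event 4262 had the widest spread, with 64.7%, 12.5% and 26.3% at week 5, 55.6%, 80.0% and 81.2% at week 9 and 71.4%, 66.7% and 80.0% at week 18 and adjusted p = 0.352. None of the 12 tested events of the endothelial and fibroblast lists was among the 115. With 5.66% of all tested events passing, 12 events are too few to tell this from the share of all.

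Endothelial level and isoform position each followed age across WT libraries. For position this holds by construction, since the events were chosen on the libraries of weeks 5 and 18, whose means set the scale below. That the 2 went together across ages is therefore no test of a link. For each of the 115 events, a library was placed on a scale on which the week 5 mean is 0% and the week 18 mean is 100%, and the median over events was taken. Library 1 of week 5 stood at 31.7% and libraries 2 and 3 at -16.6% and -16.8%, while their endothelial levels, as means of log2(CPM + 1) over the tested Pecam1 and Emcn events, were 8.83, 9.69 and 9.61. Of the 3 libraries of week 5, the first was nearest to week 18 in 85 of the 115 events (73.9%), against 47.7% of all tested events. The 115 were chosen for a difference between these same libraries, so the choice itself can shape this contrast. At week 9 positions were 50.2%, 57.6% and 44.4%, at endothelial levels of 8.85, 8.70 and 8.94. At week 18 they were 102%, 97.7% and 98.8%, at levels of 8.08, 7.73 and 7.96. Within weeks 5 and 9 the library with the lowest endothelial level had the highest position, and within week 18 it had the lowest. KO libraries, which entered the count filter and the estimate of the spread but not the contrast that chose the events, had endothelial levels of 7.61, 7.27 and 7.85 at week 18, against 7.73 to 8.08 in WT, with positions of 41.6%, 48.3% and 41.0%. Since the events were chosen for their WT change, WT week 18 lies near 100% by construction, which favours lower positions in KO. In some of these events, such as that of Dnm1l, KO also differed from WT at week 5. The KO positions are therefore no measure of a lag. Fibroblast levels in WT, over the tested Postn and Fn1 events, were 3.75, 5.29 and 5.14 at week 5, 3.35 to 3.59 at week 9 and 2.74 to 3.02 at week 18.

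**Figure D4:**
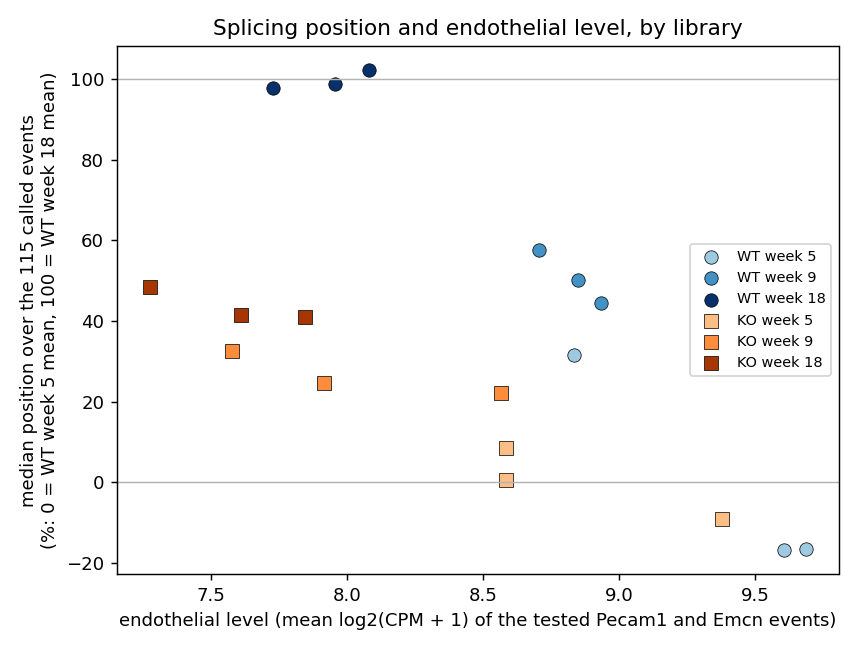
Median position of each library over the 115 events (vertical axis, %; 0 is the WT week 5 mean and 100 the WT week 18 mean) against its endothelial level (horizontal axis, mean log2(CPM + 1) of the tested Pecam1 and Emcn events). Circles are WT and squares KO libraries. Library 1 of WT week 5, at 31.7%, lies near week 9 on both axes, and KO week 18 lies at 41.0% to 48.3% with endothelial levels of 7.27 to 7.85. The events were chosen for their WT change, which favours lower positions in KO.

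A slope of the ratio on the endothelial level, fitted within groups of one genotype and age over all 18 libraries, passed in 9 events (0.443%), of which 2 are among the 115, one of them in Ppp3ca. The Ppp3ca slope was -1.13 per log2 unit of level (adjusted p = 0.0387), so a lower level went with more long isoform, the direction of its change with age. The slope on the fibroblast level passed in 4 events (0.197%), none of them among the 115; with the 9 WT libraries alone 19 passed, 1 of them among the 4. Camk2d event 9000, with an endothelial slope of 1.64 (adjusted p = 0.0160), is one of these 4; its long shares were 27.6%, 43.9% and 44.4% at week 5, 32.3%, 36.9% and 37.4% at week 9 and 55.2%, 52.6% and 52.9% at week 18, with library 1 of week 5 the lowest, and its own change with age did not pass (adjusted p = 0.359). Of the 9 endothelial slopes, 4 passed again without library 1 of week 5, and 17 passed then in all; with the 9 WT libraries alone 5 passed, 1 of them among the 9.

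When a level was added to the fit as a covariate, few changes with age passed. With the endothelial level 7 events passed, 3 of them among the 115, and with the fibroblast level 6, again 3 among the 115. Of the named events, Atpbd4 passed with each (adjusted p = 0.0456 and 0.00527) and Rbm34 with the endothelial level (adjusted p = 0.0456). The estimates kept their direction in 111 and 114 of the 115 events. Their median absolute log2 change went from 1.46 to 0.99 and 0.98, and their median SE from 0.33 to 0.51 and 0.49. Since the levels differ between the ages with little overlap, age and the levels cannot be told apart by these fits, and the part of other cell types in the 115 changes was not tested further. Among the named events, Nexn changed by -1.18 without and by -1.27 with the endothelial level, Dnm1l by -1.50 and -1.49, Atp2b1 by 1.52 and 0.38, and Zdhhc20 by 1.49 and -0.15.

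KO myocytes, whose libraries are not part of the WT contrast, gave a view of the same interval. Their long share moved in the WT direction in 91 of the 115 events (79.1%), against 57.6% of the 2026 tested events with a share in every library. By direction, 61 of the 71 gains and 30 of the 44 losses did so. In KO alone 72 events passed between weeks 5 and 18 (3.54%), 58 gains and 14 losses. The median log2 ratio change over all tested events was 0.18 in KO and 0.07 in WT. This general shift toward the long isoform in KO favours agreement among gains over losses. Of the 115 events, 27 passed in KO, 25 in the same direction. Csnk1g3 rose by 16.3 points in WT and 16.5 in KO, Ppp3ca by 34.7 and 28.1, Arhgef11 by 11.7 and 10.1, and Asph by 11 and 9.40. In these 4 the KO change passed as well, at adjusted p from 0.00402 to 0.0168. The endothelial totals fell in KO too, with a log2 change of -1.36 for Pecam1 event 8433 (adjusted p = 0.00230; 14.1% of all KO totals passed).

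**Figure D5:**
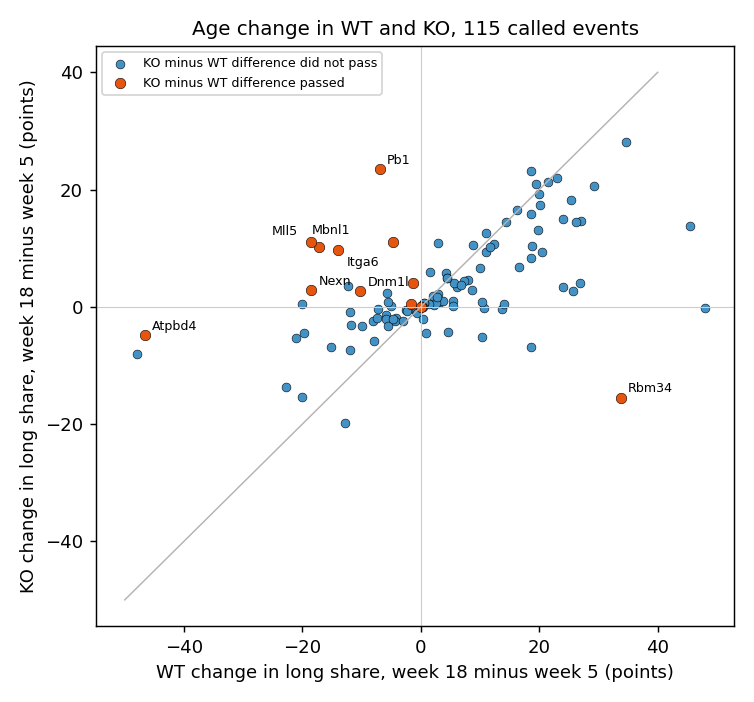
Change in long share from week 5 to week 18, in percentage points, in WT (horizontal axis) and KO (vertical axis) for the 115 events that passed in WT, each point being a difference of means of 3 libraries; the grey diagonal marks equal changes. Orange points are the 12 events whose change differed between the genotypes, and those that moved by over 5 points in WT carry a gene name.

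The change with age differed between KO and WT in 16 events (0.787%), of which 12 are among the 115. The WT change enters both tests, which favours such an overlap. Nexn fell by 18.5 points in WT, while KO libraries were at 83.0%, 83.0% and 87.6% at week 5 and 85.7%, 88.4% and 88.0% at week 18 (adjusted p of the difference = 0.0179). Dnm1l fell by 10.2 points in WT, from a level far below that of KO, which had 65.8%, 59.9% and 58.8% and 64.2%, 66.1% and 62.1% (adjusted p = 0.0380). Mbnl1 was likewise low in WT and at 78.0%, 74.2% and 70.2% and 77.3%, 86.4% and 89.4% in KO (adjusted p = 0.0431). For Pb1 event 3769, WT fell by 6.98 and KO rose by 23.5 points (adjusted p = 0.00485). In KO the long shares of Atpbd4 and Rbm34 changed by -4.83 and -15.5 points (adjusted p of the difference = 0.00348 and 0.00191). For Atpbd4, KO also moved toward the short isoform after week 9, by less than WT. Its short isoform had 0.738 CPM at week 9 and 9.86 at week 18, its long isoform 120 and 75.7. KO libraries of week 5 differed, with 23, 44 and 9 short beside 233, 368 and 1589 long counts. For Rbm34, KO at week 18 had 389, 627 and 328 short beside 541, 163 and 115 long counts. Mll5 and Itga6 also differed (adjusted p = 0.0145 and 0.0431), whereas for Vegfa, which moved by 25.6 points in WT and 2.76 in KO, the difference did not pass (adjusted p = 0.0544). The count of 16 differences became 51 without library 1 of WT week 5, 9 without library 2 or 3, and 4 to 14 without a WT library of week 18. It was 4 to 24 without a KO library of week 5 or 18, and 4 with TMM scaling.

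A second assay measured WT myocytes at week 9 only, by sequencing the 3′ ends of transcripts in 3 libraries, in reads scaled to 10000000 (RP10M). There too markers of other cells were present and uneven between libraries. Pecam1 was at 491, 803.4 and 2686.3 RP10M, Emcn at 50.2, 76 and 424.5, Postn at 14.9, 29 and 96.2, and Fn1 at 54.3, 112.2 and 147.4. The sources used here do not tie these libraries to those of RASL-seq.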

How the data were processed

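Isoforms were counted by RASL-seq in 18 libraries, 3 numbered columns for each genotype and age, deposited by the authors as unnormalized counts, with a short and a long column for each library per the file headers. The 3′-end table was deposited by the authors as a signal in reads per gene scaled to 10000000 per library, per the file headers. Its values were whole multiples of 1 read in 100% of cases (within 0.1 read), at 5265973 to 9565791 reads per library, and only its WT week 9 columns were used. The submitters' processing notes list cutadapt 1.2.1, Bowtie 0.12.7 and the mouse build mm9, with no role given; counting rules are not given in the sources used here.

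Analyses used R 4.3.3. The ratio of long to short counts was tested with edgeR 4.0.16 (quasi-likelihood F-test with robust dispersion moderation), with a term per library, an isoform-by-group term and 1 depth offset per library, over the 2032 events whose mean count reached 20 in total and 1 for either isoform, with Benjamini-Hochberg adjustment over all of them and a threshold of 0.05. Depth thus enters through the term per library, and a difference between the depth of short and long probes is not scaled away. Event totals were tested with edgeR and TMM factors. All 18 libraries shared 1 estimate of the spread. CPM are counts per 1000000 counts of a library and depend on how well a probe pair works, so they were compared between libraries and not between events. Marker levels are means of log2(CPM + 1) over tested events of Pecam1 and Emcn, or of Postn and Fn1; they entered the fits as a slope within groups or as a covariate. The scripts were tested on simulated counts with known changes. Events named were the 12 largest changes in each direction among passing events of 50 or more mean counts whose libraries did not overlap, the marker events, up to 3 more passing events per list, up to 3 passing marker totals per marker list, and the 4 most counted events of the known postnatal genes that did not pass, plus those with a passing single step, slope or genotype difference. The members and gene lists were chosen with earlier results of these data known.

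Alternatives were no filter, a minimum of 100 counts, a replicate block, the 9 WT libraries alone, TMM, RLE or column totals, thinning to the smallest library, limma 3.58.1 on log ratios with 0.5 added to each count, DESeq2 1.42.0, and leaving out each library. Scaling by column totals, and each scaling for the single steps and the genotype difference, was chosen after seeing the data. Same-numbered libraries did not deviate together (correlations of deviations between -0.04 and 0.03), so the numbers were not taken to pair libraries. Of the tested gene names, 1377 (83.5%) match a current symbol; names are given as in the table. Table rows hold no probe sequences, and no genome of the build was used. A few named results are not reported here, and counts over lists include them.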

Additional observations from a re-analysis of the deposited data

Results flagged for a closer look

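In 16 events the change from week 5 to week 18 differed between KO and WT by edgeR's quasi-likelihood test of the difference itself (Benjamini-Hochberg adjusted over all events). Values below are KO minus WT differences in log2 ratio change.

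Nexn differed by 1.51 (adjusted p = 0.0179), Dnm1l by 1.67 (0.0380) and Itga6 by 1.46 (0.0431). Sorbs2 (event 4048), a Z disc adaptor, differed by 1.83 (adjusted p = 0.0145); its WT libraries went from 6.57%, 10.4% and 9.71% to 3.95%, 4.38% and 4.45% and its KO libraries from 61.5%, 59.0% and 60.0% to 66.0%, 73.4% and 74.0%. Phka1 (event 3832), a muscle subunit of phosphorylase kinase, differed by 1.89 (0.0179), with 1.52%, 2.48% and 2.69% and then 0.896%, 0.893% and 0.985% in WT. Mtap4 (event 7683; now Map4), a microtubule-associated protein, differed by -1.59 (0.0330) with a WT change of only 1.41 points.

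Mbnl1 differed by 2.64 (adjusted p = 0.0431), Mll5 by 2.53 (0.0145), Prrc2c (event 7498) by 2.02 (0.0145) and Rbm34 by -6.28 (0.00191). The Pb1 events differed by 3.60 (event 3769, adjusted p = 0.00485) and -1.84 (event 4647, 0.0380); the long count of the first is the short count of the second, so they are not independent. Atpbd4 differed by 6.35 (adjusted p = 0.00348), and 1700012B15Rik (event 8621) by -3.56 (0.0321), from changes of 9.24 points in WT and -24.1 points in KO.

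In 2 events the difference rests on few counts of the rarer isoform. Nrap (event 4390), an actin-anchoring protein of myofibril assembly, differed by -8.46 (adjusted p = 0.0380), but its long isoform had 30, 14 and 17 counts in WT at week 18 and 0 in each KO library of that age, so the fitted value depends on the prior count and is no bound. Smek2 (event 7203; now Ppp4r3b), a subunit of protein phosphatase 4, differed by 5.07 (0.00348), on 76, 37 and 71 short counts in WT and 4, 0 and 0 in KO at week 18.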

How the results depend on the processing

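Between weeks 5 and 18 the 115 passing events became 57 with TMM factors, 7 with the endothelial level and 6 with the fibroblast level as covariate, and 29 to 174 when 1 library was left out; under the other settings they numbered 80 to 137. Of 771 values of named passing events under other settings, 514 kept direction and call, 256 missed the threshold and 1 changed direction, Zdhhc20 with the endothelial covariate, at -0.15. The cause was not tested. From week 5 to week 9, the 5 passing events became 11 with no filter, 3 after thinning, 26 with DESeq2 and 0 to 40 without 1 library. For that step 0 passed with TMM factors (edgeR; 177 at an unadjusted p under 0.05), with the 9 WT libraries alone (edgeR; 260) and with limma (212), and 0 without library 2 or 3 of week 5 or 1 or 3 of week 9 (edgeR; 167 to 194). From week 9 to week 18, the 6 became 3 with TMM, 10 with limma, 40 with DESeq2 and 3 to 14 without 1 library. The 16 genotype differences became 4 with TMM, 7 with limma, 29 with DESeq2 and 4 to 51. Totals passed in 154 to 459 events without 1 library, and of 142 values of marker totals 136 were unchanged in call, 3 missed and 3 newly passed it. The endothelial slopes, 9 in number, became 5 and the 4 fibroblast slopes 19 in the WT libraries alone, and 4 to 17 and 2 to 5 without 1 library. With the replicate number as a block, 106 events passed, 100 of them shared; the pairing was not borne out by the libraries, and no count of calls moved by over 1.5 times. After thinning to the smallest library 99 events passed, 84 of them among the 115.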
